A study of Mus musculus with 18 samples.

Results

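Macrophages grown from bone marrow of wild-type (WT) C57BL/6J mice were compared with and without lipopolysaccharide (LPS), and the response was read across all genes. In culture such marrow cells mature into macrophages, phagocytes that sense bacteria. The WT LPS group received 10 ng/ml LPS for 4 h and held 4 columns of RNA sequencing values from 2 libraries, called 14 and 15 here after their numbers in the labels. The WT unstimulated group received no LPS and held 2 columns from 1 library, number 13. These 6 columns were chosen by their labels out of 18, and they are 3 of the 9 libraries. The other 12 columns came from macrophages that lack BAFF or APRIL, cytokines of the tumour necrosis factor family, under the same LPS treatment or none. The labels place every sample, with or without LPS, at day 16 of gestation in a study of preterm birth. Whether the LPS libraries of a genotype, 14 and 15 in WT, stem from different animals or cultures is not stated. The p-values reflect only how far LPS libraries of the same genotype differ, knockouts included, which may be technical. The unstimulated library stood alone in its group and was assumed to vary as libraries of the LPS groups did.

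LPS is a glycolipid of the outer membrane of Gram-negative bacteria. On macrophages it is handed by CD14 to the complex of Toll-like receptor 4 and MD-2, which signals through the adaptor MyD88 to NF-kB and MAP kinases and through the adaptor TRIF to IRF3. The MyD88 branch is known for inflammatory cytokines. The TRIF branch is known for interferon beta, which acts back on the cells through its receptor and turns on interferon-stimulated genes.

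Values are RPKM, read counts plus 1 added read, divided by gene length and by the total over the listed genes. Levels can thus be set side by side between genes, though the added read raises low ones. The WT libraries held 5121833 to 5498743 reads in these genes. Differences are of log2(RPKM + 1), a scale that understates changes in genes of low level, and a gene was called where the Benjamini-Hochberg adjusted p of limma was below 0.05. Genes with few exons were scarce in the table: 0.2% of protein-coding genes with 1 exon and 10.6% of those with 2 exons were listed, against 63.3% of those with 6 or more. Genes such as Jun, Junb, Cebpb and Zfp36 were not analysed here.

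All 12 macrophage markers had reads in every WT library, but reads alone do not tell cell types apart. The neutrophil, B cell and skeletal muscle markers in the table also all had reads, unstimulated and over both LPS libraries together. Adgre1, which encodes F4/80, had 508 and 504 RPKM with LPS, against 531 RPKM unstimulated, and Cd68, a lysosomal membrane protein of phagocytes, had 752 and 739.6 RPKM with LPS, against 1075 RPKM unstimulated. In the macrophage list 3 genes rose and 6 fell (6 and 1 after the median ratio scaling described with the overall counts). Its summed level was 8720 and 8920 RPKM with LPS, against 12700 RPKM unstimulated. RNA of other cells was present too, and the WT libraries stood apart from the rest of the series in muscle RNA. Markers of skeletal muscle summed to 477 and 330 RPKM in the WT LPS libraries and 329 RPKM in the WT unstimulated library, against 37.7 to 91.1 RPKM in the 6 knockout libraries. None of the 20 muscle markers tested was called in the WT comparison in RPKM, and 4 were higher after that scaling. Fibroblast markers summed to 298 RPKM in library 14 and 89.1 RPKM in library 15, against 180 RPKM in the unstimulated library, and none of 9 was called. Neutrophil markers summed to 1610 and 2030 RPKM with LPS, against 3270 RPKM unstimulated, and of 14 tested 1 rose and 10 fell (3 and 5). Osteoclast markers summed to 99.6 and 85.7 RPKM with LPS, against 179 RPKM unstimulated, and of 6 tested 1 rose and 4 fell (1 and 3). B cell markers summed to 24.4 and 27.5 RPKM with LPS, against 34.4 RPKM unstimulated. Only 3 of 10 T and NK cell markers were in the table, with 2.75 and 4.17 RPKM summed with LPS, against 2.62 RPKM unstimulated. In such bulk samples fewer cells of a type and less RNA per cell cannot be told apart, and the part of other cells in the results below was not tested.

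Of 9934 genes tested, 1356 were higher with LPS (13.7%) and 4636 were lower (46.7%). The 332 genes called higher by at least 4-fold (3.34%) held 17.1% and 17% of all reads in the LPS libraries, against 1.64% in the unstimulated library. The 131 called lower by at least 4-fold (1.32%) held 0.288% and 0.269% with LPS, against 1.72% unstimulated. RPKM shares out a fixed total, and the median gene tested stood at −0.44. After scaling by the median ratio of genes, that median was −0.01 and the counts were 2289 higher (23.0%) and 1682 lower (16.9%). Of the 1356 rises 1355 were called higher on this scale too, and of the 4636 falls 1682 were called lower and 1 was called higher. For each gene group, the counts after median ratio scaling therefore follow those in RPKM, and a gene described as having fallen was called lower on both scales unless the sentence says otherwise. Whichever LPS library was left out, 1100 of the rises and 3321 of the falls were called.

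**Figure D1:**
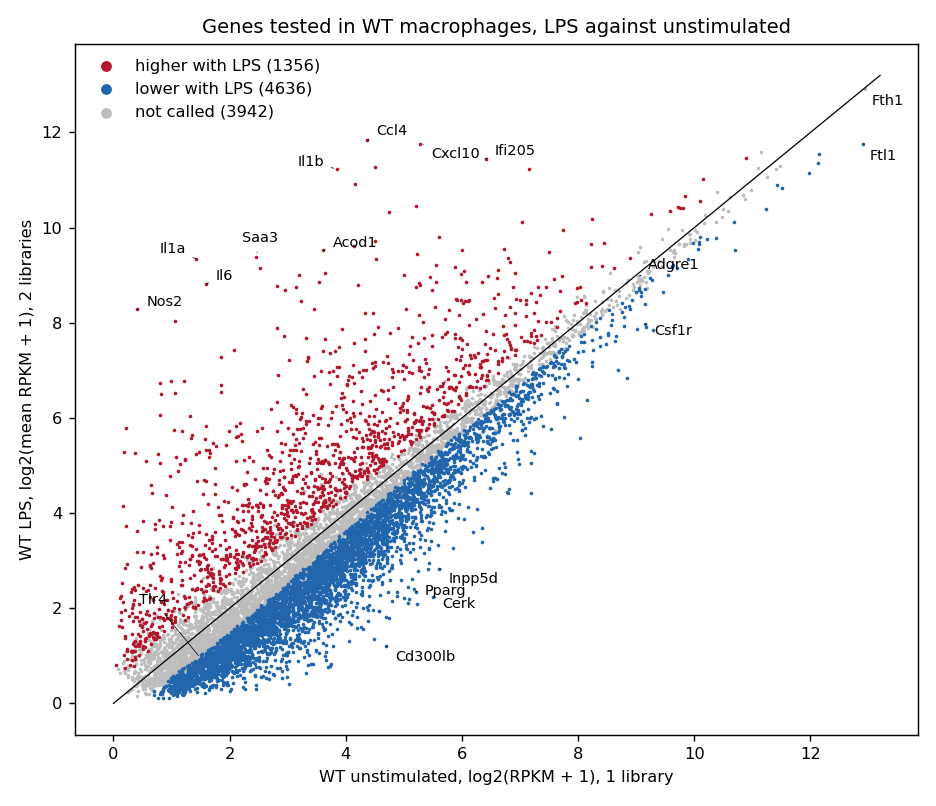
Mean level in the 2 WT LPS libraries against the level in the WT unstimulated library for the genes tested, both as log2(RPKM + 1), with the line of equal level. Rises (1356) spread far above the line, up to 7.93 for Il1a, while falls (4636) lie closer to it, down to −3.51 for Cd300lb.

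Rises reached further than falls. Il1a, which encodes interleukin-1 alpha, had 675, 680.2, 637 and 610.3 RPKM in the 4 LPS columns, against 1.41 and 1.92 RPKM in the 2 unstimulated columns. Nos2, the inducible nitric oxide synthase, had 311, 313, 301 and 314 RPKM with LPS, against 0.399 and 0.259 RPKM unstimulated. Its unstimulated level rested on 5 reads. The interleukin-6 gene Il6 had 398, 424, 517 and 468 RPKM with LPS, against 2.57 and 1.5 RPKM unstimulated. In all 3 genes every LPS column stood more than 100-fold above every unstimulated column, and the 4 LPS columns, 2 per library, lay close together. The 15 largest rises were chosen among genes whose LPS and unstimulated columns did not overlap. The log2 differences were 7.93 ± 0.15 for Il1a, 7.87 ± 0.15 for Nos2 and 7.21 ± 0.18 for Il6 (SE, adjusted p 3e-08, 4.1e-08 and 1e-07). Among the 15 largest rises, differences ran down to 5.80 for the long noncoding RNA gene AW112010, and adjusted p did not exceed 1.2e-07. Of the chemokine genes among them, Ccl4 had 3481 and 3863 RPKM with LPS, against 19.6 RPKM unstimulated. Ccl3 had 2251 and 2727 RPKM with LPS, against 21.7 RPKM unstimulated. Ccl5, which draws T cells, had 1832 and 2021 RPKM with LPS, against 16.8 RPKM unstimulated. Cxcl10, an interferon-induced attractant of T cells, had 3481 and 3480 RPKM with LPS, against 37.8 RPKM unstimulated. With LPS the 4 chemokines were among the most abundant transcripts read. The others were Il1b, Il27, the acute-phase gene Saa3, the GTPase gene Gbp2b, the itaconate-producing enzyme Acod1, Trim30c and U90926.

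Falls were shallower and began from moderate levels. Cd300lb, a receptor of myeloid cells that signals through DAP12, had 2.02, 1.23, 0.89 and 1.04 RPKM with LPS, against 23.3 and 26.4 RPKM unstimulated. Cerk, which encodes ceramide kinase, had 3.67, 3.39, 3.78 and 4.04 RPKM with LPS, against 44.9 and 44.1 RPKM unstimulated. Inpp5d, which encodes the phosphatase SHIP1 that limits signalling by phosphoinositide 3-kinase, had 6.05, 6.22, 6.16 and 6.08 RPKM with LPS, against 50.3 and 45.6 RPKM unstimulated. The log2 differences were −3.51 ± 0.22 for Cd300lb, −3.27 ± 0.15 for Cerk and −2.78 ± 0.13 for Inpp5d (SE, adjusted p 1.2e-05, 2.5e-06 and 2.4e-06). Others among the 15 largest falls were Slc43a2, an exporter of neutral amino acids, the receptor gene Nfam1, the kinase gene Cdk18, Otulinl, Plekhg3 and the endocytic adaptor Hip1. Rab7b of late endosomes, Lonrf3, the lipid-sensing receptor Pparg, Tpra1 and the lysoplasmalogenase gene Tmem86a were among them too. Tmem86a had the widest error of the 15, −2.94 ± 0.42 (adjusted p = 0.00089), from 5 and 4 reads in the LPS libraries and 123 in the unstimulated library.

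**Figure D2:**
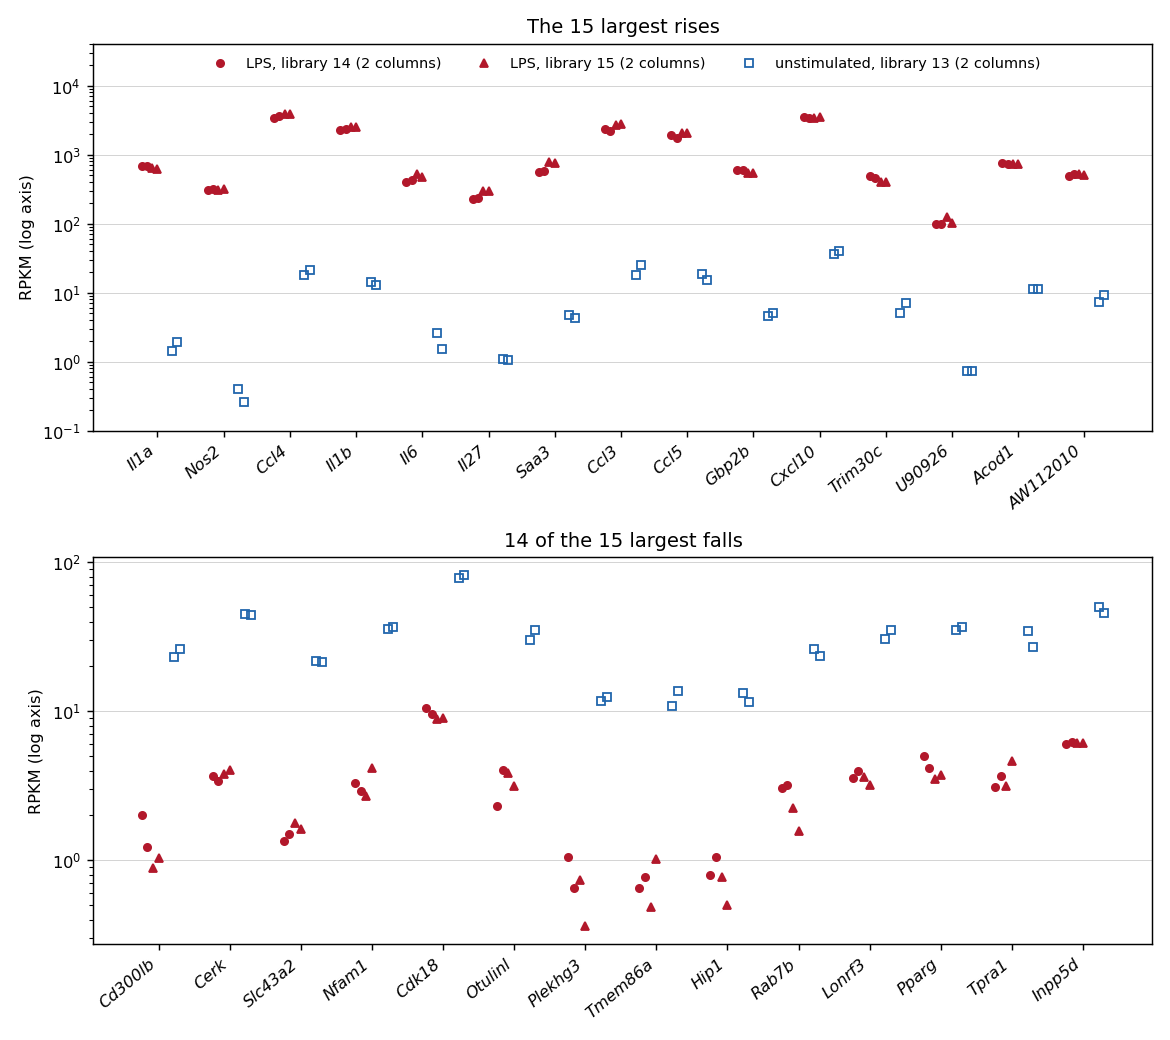
RPKM on a log axis in each column for the 15 largest rises (upper) and 14 of the 15 largest falls (lower), with the 4 LPS columns left of the 2 unstimulated columns of each gene. The genes were chosen among those whose LPS and unstimulated columns do not overlap, and the rises span more than the falls. U90926 had 0 reads unstimulated and is drawn at the floor that the table gives to 0 reads.

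The starting levels of the rises varied widely. Of the 332 rises of at least 4-fold, 48 were under 1 RPKM in the unstimulated library, 149 were at 1 to 10 RPKM and 135 were at 10 RPKM or more. For 9 genes no read was found in the unstimulated library, and a fold could be given only as a bound against 3 reads in it. Edn1, which encodes the vessel-constricting peptide endothelin-1, had 52.2 and 56.8 RPKM with LPS and was at least 228-fold higher. Cxcl9, an interferon-gamma-induced chemokine, was at least 202-fold higher, and U90926 at least 99.9-fold. The bounds were 51.2 for Serpina3f, 33 for Ccl12, 29.5 for Lhx2, 28.4 for Tnfsf15, 11.2 for Apol9b and 5.96 for Hamp, the hepcidin gene. With LPS, 141 of the 332 reached 100 RPKM and 10 reached 1000 RPKM. The highest genes in the LPS libraries were Fth1 at 7438 and 8060 RPKM, Ccl4 and Cxcl10, followed by Ftl1, the gene model Gm10800, Lyz2, Anxa5, Ifi205, Psap and Ctss. Ferritin heavy chain Fth1, at 7835 RPKM unstimulated, was not called (−0.02), and its light chain partner Ftl1 fell to 3214 and 3729 RPKM with LPS, against 7647 RPKM unstimulated.

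Promoter sequences of the 15 largest rises and falls were searched on both strands for the NF-kB letters, GGGAA and CC with any 3 bases between them, and for those of the interferon-stimulated response element (ISRE), GAAA and GAAA with any 2 bases between them. The window was 250 bases before the gene start and 50 bases after it (RefSeq, GRCm38.p6), and 11 of the rises and 12 of the falls had such a sequence. Of all tested genes with a sequence 10.0% held NF-kB or ISRE letters, as did 30.9% of the rises and 5.3% of the falls of at least 4-fold. Of the 11 rises among the largest, 5 held such letters. None of the 12 falls did, which does not stand out beside a share of 10.0%. The promoters of 4 of these 5 rises are printed as examples and that of Pparg, among the falls, for comparison, with NF-kB and ISRE letters of either strand in capitals. The Il6 match began 43 bases before the gene start (chr5:30012864-30013163, plus strand). Cxcl10 held NF-kB letters at 159 and 103 bases and ISRE letters at 213 bases before the start (chr5:92348840-92349139, minus strand). Saa3 held ISRE letters at 125 bases (chr7:46715627-46715926, minus strand) and Gbp2b at 137 bases (chr3:142594597-142594896, plus strand). Pparg (chr6:115360894-115361193, plus strand) held neither and had 44 CpG in the 300 bases, against 3 in Il6, 10 in Cxcl10, 5 in Saa3 and 1 in Gbp2b. Pparg had the most CpG of the 12 falls, and others overlapped these rises, with 4 in Cd300lb, 5 in Nfam1 and 6 in Cdk18 and Inpp5d. The rises without a match to either motif were Il1a, Il1b, Ccl3, Trim30c, U90926 and Acod1. Only these exact letters within this window were searched, so a missing match does not show that a site is absent.
Il6: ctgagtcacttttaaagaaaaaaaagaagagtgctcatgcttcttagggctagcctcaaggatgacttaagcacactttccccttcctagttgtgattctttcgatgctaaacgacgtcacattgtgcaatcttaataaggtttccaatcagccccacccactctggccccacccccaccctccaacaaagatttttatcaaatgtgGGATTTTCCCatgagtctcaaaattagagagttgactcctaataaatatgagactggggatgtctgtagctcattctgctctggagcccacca
Cxcl10: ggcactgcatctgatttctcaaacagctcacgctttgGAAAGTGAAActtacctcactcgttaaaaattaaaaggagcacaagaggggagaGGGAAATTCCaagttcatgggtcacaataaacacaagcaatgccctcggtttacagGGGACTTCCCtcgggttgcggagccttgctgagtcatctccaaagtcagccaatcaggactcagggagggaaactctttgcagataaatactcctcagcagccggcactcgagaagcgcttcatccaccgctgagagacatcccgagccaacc
Saa3: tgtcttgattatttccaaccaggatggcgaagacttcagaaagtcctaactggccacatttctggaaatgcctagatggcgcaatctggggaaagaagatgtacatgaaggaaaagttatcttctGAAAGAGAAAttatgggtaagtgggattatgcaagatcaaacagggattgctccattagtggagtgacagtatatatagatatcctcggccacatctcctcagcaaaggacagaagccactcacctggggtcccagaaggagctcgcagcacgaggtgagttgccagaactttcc
Gbp2b: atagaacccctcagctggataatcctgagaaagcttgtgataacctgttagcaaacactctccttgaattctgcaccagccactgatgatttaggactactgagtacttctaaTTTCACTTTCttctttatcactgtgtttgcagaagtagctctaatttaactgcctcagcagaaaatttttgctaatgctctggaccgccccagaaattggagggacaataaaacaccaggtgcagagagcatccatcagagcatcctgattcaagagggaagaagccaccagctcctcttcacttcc
Pparg: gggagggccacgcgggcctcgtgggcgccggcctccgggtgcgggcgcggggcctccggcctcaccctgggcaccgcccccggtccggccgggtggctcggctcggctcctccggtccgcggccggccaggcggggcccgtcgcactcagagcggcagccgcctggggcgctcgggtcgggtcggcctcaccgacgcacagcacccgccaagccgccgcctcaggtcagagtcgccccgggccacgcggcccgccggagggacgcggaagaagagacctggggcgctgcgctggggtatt

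The same letters were counted across all genes with a promoter sequence. ISRE letters stood in 19.8% of 243 promoters of the rises of at least 4-fold and 2.1% of 95 promoters of the falls, against 3.5% of all 7717 tested genes with a sequence and 3.5% of the 27025 promoters in the RefSeq table. NF-kB letters stood in 13.6% of the rises and 3.2% of the falls, against 6.8% of tested genes and 5.7% of the table. The AP-1 letters TGANTCA stood in 16.9% of the rises and 8.4% of the falls, against 5.1% of tested genes and 7.9% of the table. The cAMP response letters (TGACGTCA) were at 0.8% in the rises and 1.1% in the falls, against 3.3% of tested genes and 1.9% of the table. For TCACGTGA, the CLEAR element of lysosomal genes, the shares were 0.4% in the rises and 2.1% in the falls, against 2.2% of tested genes and 1% of the table. E2F letters (TTTNNCGC) stood in 6.2% of the rises and 7.4% of the falls, against 8.9% of tested genes and 5.3% of the table. Promoters of the rises held a median of 7 CpG in 300 bases and those of the falls 20, against 21 in tested genes and 7 in the table. NF-kB and ISRE letters occurred together in 6 of the 243 promoters of rises. These shares are descriptions, and a match is not a site shown to be bound.

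**Figure D3:**
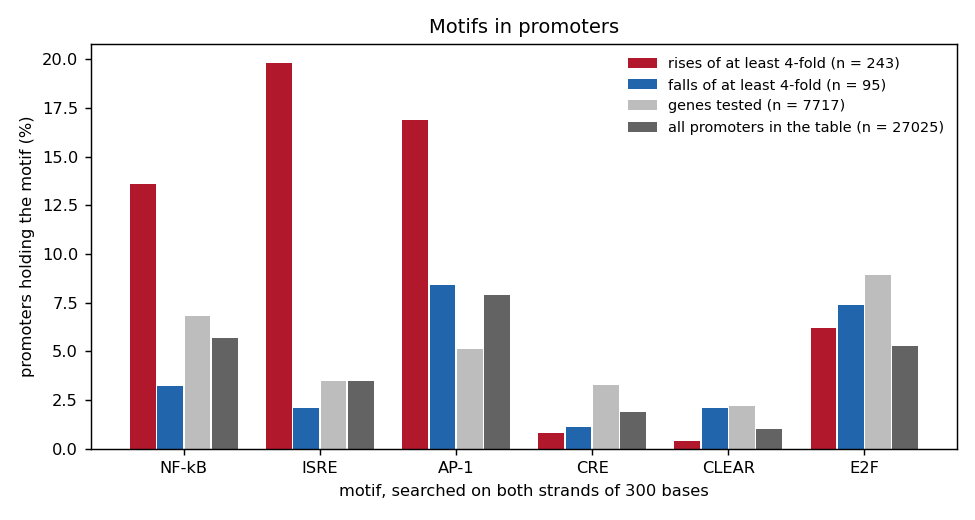
Share of promoters, 300 bases each, that hold each motif on either strand, for rises and falls of at least 4-fold, all genes tested and all promoters of the RefSeq table. ISRE letters reach 19.8% in the rises, against 3.5% of genes tested.

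Some rises were neighbours on the chromosome. Of 328 rises of at least 4-fold with a position in the annotation (mm10), 143 (43.6%) lay within 200 kb of another such rise. Of 131 falls of that size 24 (18.3%) lay within 200 kb of another fall, and their longest run held 3. Among an equal number of rises, the 131 largest, 60 (45.8%) lay within 200 kb of another of the 131. There were 11 runs of at least 4 rises, with 64 genes. The longest, on chromosome 1 from 173468485 to 174031810, was the Ifi200 family of interferon-inducible DNA sensors, where 12 of 13 tested genes rose at least 4-fold and the other, Ifi207, rose by less (1.42). A second stretch of chromosome 1, from 85027954 to 85709998, held Sp100, Sp110, Sp140 and related gene models, 10 of 14. Chromosome 14 from 59244441 to 59440884 held Phf11a to Phf11d, Setdb2 and Gm6904, 6 of 6. Others were Gbp genes on chromosomes 3 and 5, Irgm1, Tgtp1, Tgtp2 and Ifi47 on chromosome 11, schlafen genes on chromosome 11, Trim30 genes on chromosome 7, Tap1, Tap2, Psmb8 and Psmb9 on chromosome 17 and the chemokines Cxcl9, Cxcl10 and Cxcl11 on chromosome 5. In the run of Ccl3, Ccl4, Ccl5 and Ccl9 on chromosome 11 (83511736 to 83664683), Ccl6 alone was lower (47.8 and 48.5 RPKM with LPS, against 60.5 RPKM unstimulated, log2 −0.32), a call that did not hold after median ratio scaling or without library 14. Members of several of these families are near copies, and the handling of reads that match several copies is not known, so single values within a family are uncertain. Related neighbours are not independent of each other.

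The gene groups were read next, in order from sensing to output. Their counts stand beside 13.7% higher and 46.7% lower among all genes in RPKM, and 23.0% and 16.9% after median ratio scaling, so a list in which about that share fell or rose does not stand out. Of 14 receptors and cofactors for LPS and other Toll-like receptor ligands, 7 rose and 2 fell (9 and 1 after median ratio scaling). The coreceptor Cd14 rose, with 226 and 169.8 RPKM with LPS, against 63 RPKM unstimulated, and so did Ly96, which encodes MD-2 (90.4 and 111 RPKM with LPS, against 49.2 RPKM unstimulated). Tlr4 itself was low: 29 and 17 reads in the LPS libraries gave 1.13 and 0.722 RPKM, against 49 reads and 1.83 RPKM unstimulated. Its log2 difference of −0.56 was called in RPKM (adjusted p = 0.036) but not after median ratio scaling or without library 15. Rises were called for Tlr3, a sensor of double-stranded RNA, and Tlr2, a receptor for bacterial lipoproteins. Tlr3 had 9.76 and 7.81 RPKM with LPS, against 1.2 RPKM unstimulated. Tlr2 had 35.2 and 28.9 RPKM with LPS, against 10.3 RPKM unstimulated. Tlr13, which senses bacterial ribosomal RNA, fell to 0.566 and 0.293 RPKM with LPS, against 5.44 RPKM unstimulated.

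Among 27 genes of MyD88 and TRIF signalling, 13 rose and 9 fell (13 and 1 after median ratio scaling). Myd88, which encodes the adaptor itself, rose, with 127 and 125 RPKM with LPS, against 28.9 RPKM unstimulated. The ubiquitin ligase gene Peli1 had 137 and 112 RPKM with LPS, against 12.1 RPKM unstimulated. Traf1, an adaptor of TNF receptors, had 124 and 112 RPKM with LPS, against 9.9 RPKM unstimulated. A rise was also called for Irak3, which encodes a kinase-like protein that restrains the pathway and had 29.4 and 24.3 RPKM with LPS, against 7.7 RPKM unstimulated. Irak1, the kinase recruited to MyD88, was the member that fell on both scales, with 4.28 and 3.9 RPKM with LPS, against 10.1 RPKM unstimulated. Tbk1 and Ikbke, the kinases of IRF3, rose by 0.84 and 1.67 on the log2 scale. All 15 genes for NF-kB subunits, IkB proteins and IkB kinases were called, 12 higher and 3 lower (12 and 0, median 1.75). Nfkbia, the inhibitor IkB alpha and itself a target of NF-kB, had 1091 and 1129 RPKM with LPS, against 129.6 RPKM unstimulated. Nfkbiz, which directs NF-kB to secondary genes, had 102 and 89.3 RPKM with LPS, against 8.62 RPKM unstimulated, and Nfkb1, Nfkb2 and Rel rose by 2.37, 2.55 and 1.75. Rela, the abundant activating subunit, changed less, by 0.88.

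Of 19 interferon regulatory factors, STAT factors and JAK kinases, 13 rose and 2 fell (15 and 1). Irf7, the amplifier of interferon production, had 408 and 453 RPKM with LPS, against 35.9 RPKM unstimulated, and Irf1 had 242 and 239.8 RPKM with LPS, against 22.6 RPKM unstimulated. Stat2 rose by 1.86, Jak2 by 2.98 and Stat5a by 2.52. Irf3, which carries the TRIF signal as protein already in the cell, was lower by RPKM alone (−0.70). Stat6, the factor of interleukin-4, fell to 38 and 37.6 RPKM with LPS, against 86 RPKM unstimulated. Among 16 AP-1, ATF and early growth response factors 7 rose and 1 fell (8 and 1). Batf, a partner of JUN proteins, had 36.9 and 41.4 RPKM with LPS, against 2.02 RPKM unstimulated. Its relative Batf2 had 19.2 and 20.3 RPKM with LPS, against 0.877 RPKM unstimulated. Fos, an immediate early gene, fell to 11.4 and 10.7 RPKM with 4 h of LPS, against 71.7 RPKM unstimulated.

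The group of 24 interleukins and TNF family cytokines had 18 rises and 1 fall (19 and 1), with a median of 2.97 beside −0.44 for all genes. Il1b, which encodes interleukin-1 beta, had 2298 and 2492 RPKM with LPS, against 13.4 RPKM unstimulated. Tnf, the founding cytokine of its family, had 623 and 674 RPKM with LPS, against 22.1 RPKM unstimulated. Genes of restraint were among the rises as well. The receptor antagonist gene Il1rn had 471 and 409 RPKM with LPS, against 37.9 RPKM unstimulated. Il10, which dampens macrophages, had 172 and 139.5 RPKM with LPS, against 2.62 RPKM unstimulated. Subunits of the interleukin-12 family were higher together. Il12b, shared by interleukins 12 and 23, had 51.9 and 51.6 RPKM with LPS, against 1.26 RPKM unstimulated. Il27, for a subunit of interleukin-27, had 230.2 and 296 RPKM with LPS, against 1.08 RPKM unstimulated, and Ebi3, for its partner, had 81.3 and 81 RPKM with LPS, against 20.2 RPKM unstimulated. A cytokine and its presenting receptor rose side by side in Il15, which sustains natural killer cells, and Il15ra. Il15 had 199.8 and 219 RPKM with LPS, against 6.7 RPKM unstimulated. Il15ra had 70.6 and 59.6 RPKM with LPS, against 1.49 RPKM unstimulated. Il33 was not called, with 3.58 and 0.827 RPKM with LPS, against 0.384 RPKM unstimulated, and its LPS libraries were unlike each other. Il16 was the member that fell, by 1.2 on the log2 scale. Of 16 growth factors 5 rose and 6 fell (7 and 2), and Csf1, the macrophage growth factor, had 31.9 and 26.9 RPKM with LPS, against 5.82 RPKM unstimulated. Vegfa, the vascular growth factor, fell to 7.56 and 5.89 RPKM with LPS, against 29.9 RPKM unstimulated.

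Chemokines rose in both classes. Of 11 CC chemokines 10 rose and 1 fell (10 and 0), and of 11 CXC and CX3C chemokines 7 rose and none fell (8 and 0). The monocyte attractant Ccl2 had 303 and 318 RPKM with LPS, against 9.89 RPKM unstimulated. Its neighbour Ccl7 had 227 and 248 RPKM with LPS, against 6.02 RPKM unstimulated. Cxcl1, Cxcl2 and Cxcl3 are attractants of neutrophils. Cxcl1 had 130.5 and 73.1 RPKM with LPS, against 2.6 RPKM unstimulated. Cxcl2 had 909 and 782 RPKM with LPS, against 21.8 RPKM unstimulated. Cxcl3 had 90.8 and 90.0 RPKM with LPS, against 1.09 RPKM unstimulated. The LPS libraries lay well above the unstimulated one in each, and furthest from each other in Cxcl1. Cxcl5, another neutrophil attractant, had 10.3 and 0.464 RPKM in libraries 14 and 15, on either side of 2.09 RPKM in the unstimulated library, and was not called. The summed fibroblast markers were 298 RPKM in library 14 and 89.1 RPKM in library 15, and their part in this spread was not tested. Pf4, the platelet factor that macrophages also express, had 441 and 471 RPKM with LPS, against 451 RPKM unstimulated, and was not called in RPKM but was higher after median ratio scaling.

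**Figure D4:**
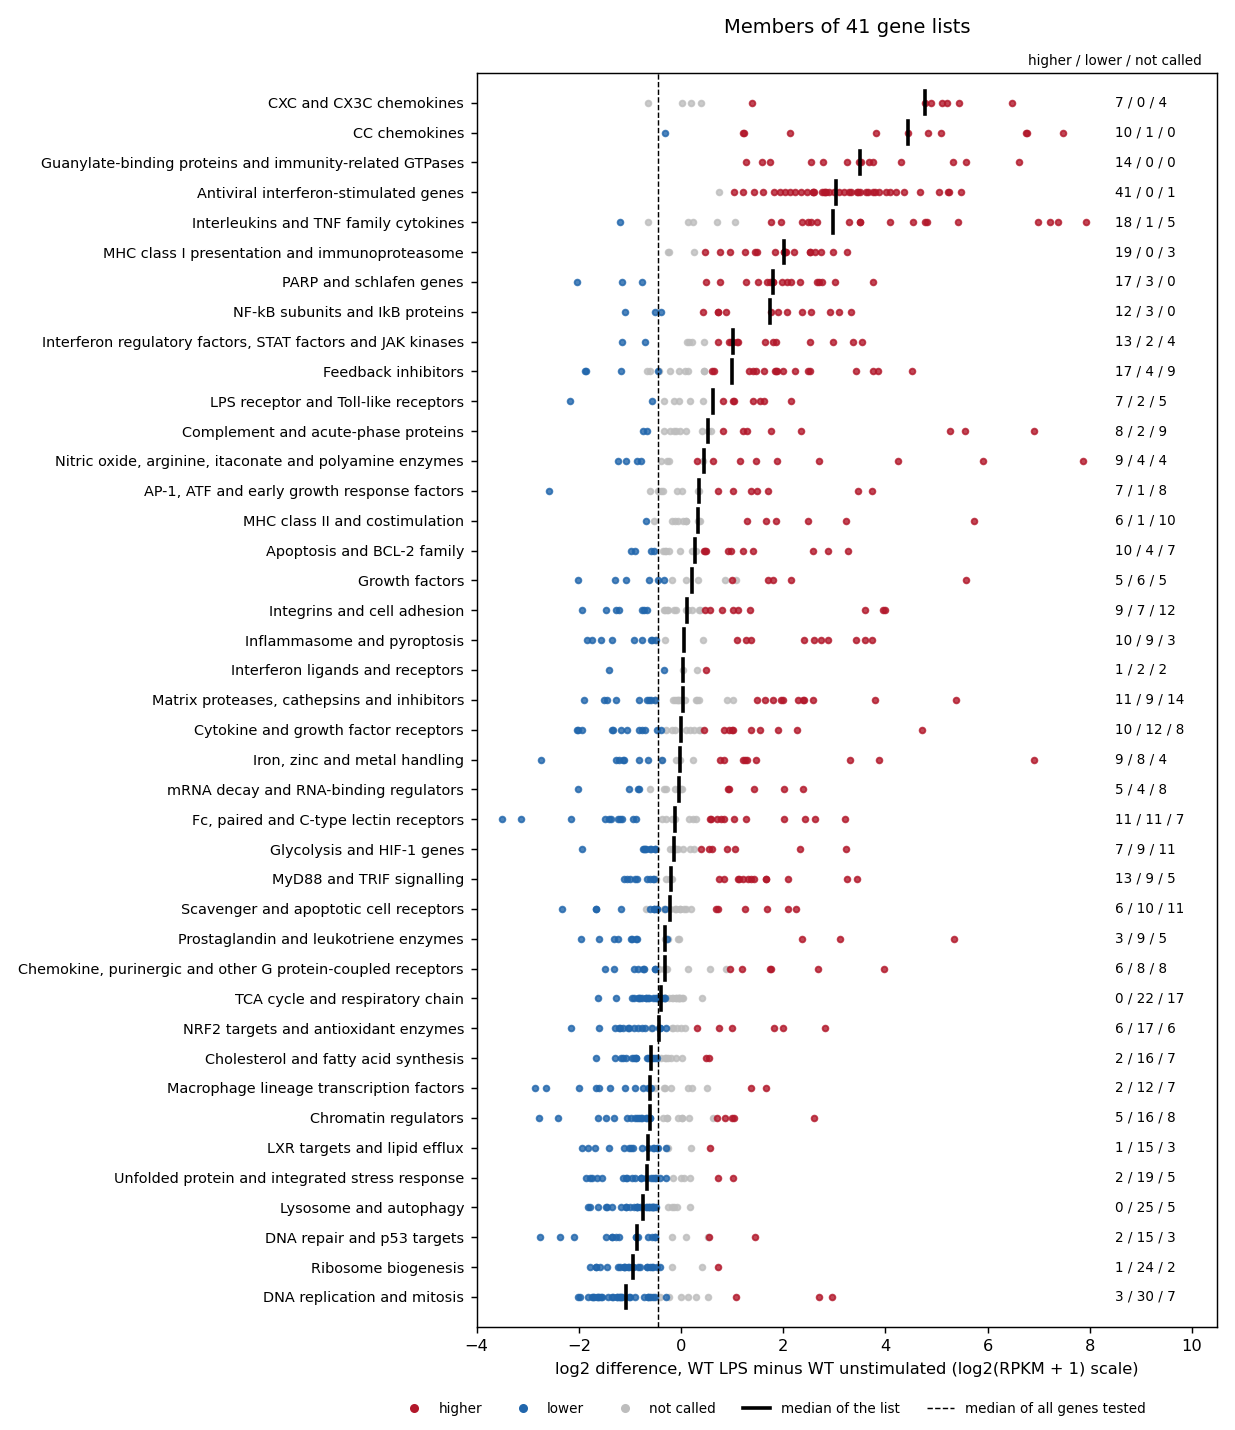
Log2 difference, WT LPS minus WT unstimulated, of each tested member of 41 gene lists, sorted by the list's median (black bar), with counts higher, lower and not called at the right. Chemokines, GTPases and interferon-stimulated genes stand at the top with medians of 3.03 to 4.78, and DNA replication and mitosis stands at the bottom with −1.08, beside −0.44 for all genes tested (dashed).

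Interferon-stimulated genes rose almost as a block. Of 42 antiviral ones 41 rose and none fell (41 and 0), with a median of 3.03. Rsad2, which encodes the antiviral enzyme viperin, had 1538 and 1280 RPKM with LPS, against 35.8 RPKM unstimulated. Cmpk2, its neighbour on the chromosome, encodes a nucleotide kinase and had 855 and 717 RPKM with LPS, against 16.6 RPKM unstimulated. Sensors and inhibitors of the pathway rose with the effectors. Ifih1, the RNA sensor MDA5, had 209 and 199 RPKM with LPS, against 8.97 RPKM unstimulated. Usp18, which removes ISG15 from proteins and damps interferon receptors, had 848 and 929.8 RPKM with LPS, against 47.4 RPKM unstimulated. Mx1 and Mx2 encode dynamin-like antiviral GTPases. Mx1 had 496 and 492 RPKM with LPS, against 42.8 RPKM unstimulated. Mx2 had 297 and 293 RPKM with LPS, against 19.2 RPKM unstimulated. The exception was Isg15, a gene of 2 exons, which had 1 and 9 reads in the LPS libraries and 0 unstimulated and could hardly be read in this table. Ifit1 was called from 28 and 14 reads with LPS, against 0 unstimulated. Receptors for interferon moved less: Ifnar2 rose by 0.49, and Ifngr1 fell to 17 and 15.7 RPKM with LPS, against 44.9 RPKM unstimulated. Ifnb1 itself was not analysed here.

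All 14 guanylate-binding protein and immunity-related GTPase genes tested rose on both scales (median 3.50). These proteins attack membranes around pathogens. Gbp2 had 1308 and 1254 RPKM with LPS, against 26 RPKM unstimulated. Gbp2b had 603 and 533 RPKM with LPS, against 4.78 RPKM unstimulated. Igtp, of the immunity-related class, had 55.8 and 47.7 RPKM with LPS, against 4.55 RPKM unstimulated. Of 20 PARP and schlafen genes 17 rose and 3 fell (17 and 2). Parp14 and Parp12 are interferon-stimulated members. Parp14 had 244 and 196 RPKM with LPS, against 26.1 RPKM unstimulated. Parp12 had 147 and 138 RPKM with LPS, against 21 RPKM unstimulated. Parp1, which acts in DNA repair, fell to 9.84 and 9.6 RPKM with LPS, against 43 RPKM unstimulated.

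Many inhibitors that limit the response were higher as well. Of 30 feedback inhibitors 17 rose and 4 fell (21 and 3). Socs3, the inhibitor of interleukin-6 receptor signalling, had 37 and 29.1 RPKM with LPS, against 0.473 RPKM unstimulated. Tnfaip3, the deubiquitinase A20, had 164 and 128 RPKM with LPS, against 9.09 RPKM unstimulated, and Cd274, which encodes PD-L1, had 194 and 184 RPKM with LPS, against 16.7 RPKM unstimulated. The phosphatase gene Dusp2 had 27.2 and 29.7 RPKM with LPS, against 1.16 RPKM unstimulated, whereas Dusp1 had 39.4 and 33.4 RPKM with LPS, against 34.3 RPKM unstimulated, and was not called in RPKM but was higher after median ratio scaling. Not all brakes were higher. Rgs2, which limits G protein signalling, fell to 4.46 and 5.53 RPKM with LPS, against 21.1 RPKM unstimulated. Trib3, a pseudokinase gene, fell to 3.17 and 1.81 RPKM with LPS, against 11.5 RPKM unstimulated. Among 17 regulators of mRNA decay, 5 rose and 4 fell (7 and 2). Zc3h12a, the RNase regnase-1 that degrades cytokine mRNA, had 28.1 and 27 RPKM with LPS, against 9.57 RPKM unstimulated. Zfp36l2, whose protein binds AU-rich elements, fell to 2.91 and 2.35 RPKM with LPS, against 13.6 RPKM unstimulated.

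Enzymes of arginine, itaconate and related metabolism gave 9 rises and 4 falls of 17 (10 and 1). Next to Nos2, genes that supply its substrate and cofactor were higher. Slc7a2, the arginine importer, had 59.1 and 52.5 RPKM with LPS, against 2 RPKM unstimulated. Gch1, which makes the cofactor tetrahydrobiopterin, had 101 and 107 RPKM with LPS, against 15.2 RPKM unstimulated. Ass1, which recycles citrulline to arginine, had 170.4 and 205 RPKM with LPS, against 67.2 RPKM unstimulated. The itaconate-producing enzyme gene Acod1 rose more than these, with 745 and 726 RPKM with LPS, against 11.2 RPKM unstimulated. Glycolysis gave a divided picture, with 7 rises and 9 falls of 27 (12 and 1, and 8 and 9 with quantile normalization). Slc2a6, a hexose transporter, had 132 and 136 RPKM with LPS, against 13.4 RPKM unstimulated. Pfkfb3, whose product activates phosphofructokinase, had 82.9 and 70.2 RPKM with LPS, against 14.3 RPKM unstimulated. Hk2, a hexokinase, had 52.4 and 43.7 RPKM with LPS, against 22.5 RPKM unstimulated. Pkm, the pyruvate kinase, and Aldoa, an aldolase, were lower, at −0.59 and −0.60 on the log2 scale, and neither was called after median ratio scaling. Gapdh had 289 and 331 RPKM with LPS, against 338 RPKM unstimulated, and was not called in RPKM, was higher after median ratio scaling and was lower with quantile normalization. None of 39 TCA cycle and respiratory chain genes rose in RPKM and 22 fell, but the direction depended on the scaling, with 9 higher and 2 lower after median ratio scaling and 1 higher and 22 lower with quantile normalization. Idh1 and Aco1, the cytosolic isoenzymes, were the pair lower both in RPKM and after median ratio scaling. Idh1 had 14.5 and 16.4 RPKM with LPS, against 49.7 RPKM unstimulated. Aco1 had 10.1 and 8.55 RPKM with LPS, against 23.7 RPKM unstimulated.

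Lipid genes were mostly lower in RPKM. Of 19 genes of cholesterol efflux and lipid handling, many of them targets of the liver X receptor, 1 rose and 15 fell (2 and 6). With quantile normalization 14 fell. Soat1, which esterifies cholesterol, had 33 and 30.8 RPKM with LPS, against 126 RPKM unstimulated. Npc1, which carries it out of lysosomes, had 38 and 30.8 RPKM with LPS, against 123 RPKM unstimulated. Abcg1, which exports it, had 36.9 and 30.9 RPKM with LPS, against 74.7 RPKM unstimulated. All 3 were lower on both scales, whereas Abca1, another exporter, was lower in RPKM, at −1.02 on the log2 scale, but not called after median ratio scaling. Of 25 genes of cholesterol and fatty acid synthesis 2 rose and 16 fell (3 and 5). Fasn, the fatty acid synthase, fell to 1.7 and 1.46 RPKM with LPS, against 7.2 RPKM unstimulated. Insig1, a brake on sterol synthesis, had 7.85 and 7.8 RPKM with LPS, against 5.08 RPKM unstimulated, a call (adjusted p = 0.038) that was lost without either WT LPS library and in the voom fit. Among 17 prostaglandin and leukotriene enzymes 3 rose and 9 fell (3 and 5). Ptgs2, the inducible cyclooxygenase, had 187 and 154 RPKM with LPS, against 3.19 RPKM unstimulated. Ptges, the prostaglandin E synthase, had 18.8 and 14.2 RPKM with LPS, against 1.02 RPKM unstimulated. The constitutive cyclooxygenase Ptgs1 went the other way, to 2.84 and 3.2 RPKM with LPS, against 9.01 RPKM unstimulated. Hpgd, which degrades prostaglandins, fell to 0.594 and 1.2 RPKM with LPS, against 4.71 RPKM unstimulated.

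Iron and redox genes moved in both directions. Slc40a1, which encodes ferroportin, the iron exporter, fell to 1.4 and 1.58 RPKM with LPS, against 15.5 RPKM unstimulated. Hamp, whose peptide hepcidin removes ferroportin from membranes, had 21 and 13 reads with LPS, against 0 unstimulated. Binders of metal and of siderophores were higher. Lcn2, whose product binds bacterial siderophores and which is also a neutrophil marker, had 217 and 268 RPKM with LPS, against 103 RPKM unstimulated. Mt2, a zinc-binding metallothionein, had 495 and 433 RPKM with LPS, against 45.7 RPKM unstimulated. Of 21 genes of this group 9 rose and 8 fell (11 and 5). Antioxidant genes gave 6 rises and 17 falls of 29 (9 and 7, and 5 and 17 with quantile normalization). Sod2, the superoxide dismutase of mitochondria, had 109.7 and 124 RPKM with LPS, against 15.6 RPKM unstimulated, and Slc7a11, the cystine importer, had 8.41 and 8.65 RPKM with LPS, against 1.68 RPKM unstimulated. Some targets of NRF2 were among the falls, while Slc7a11 of the same list rose. Gclc, of glutathione synthesis, fell to 8.5 and 8.71 RPKM with LPS, against 42 RPKM unstimulated. Nqo1, a quinone reductase, fell to 1.66 and 1.35 RPKM with LPS, against 6.65 RPKM unstimulated.

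Antigen presentation on class I rose, with 19 of 22 genes higher and none lower (20 and 0, median 2.02), although 2 were called lower with quantile normalization. Tap1, a peptide transporter subunit, had 313 and 309 RPKM with LPS, against 31.8 RPKM unstimulated. Psmb9, of the immunoproteasome, had 61.6 and 69.4 RPKM with LPS, against 9.84 RPKM unstimulated. Nlrc5, the class I transactivator, had 107 and 99.7 RPKM with LPS, against 12.3 RPKM unstimulated. Every step of the class I route was represented among the rises, peptide cutting, transport and the heavy chains. The class II and costimulation list of 17 had 6 rises and 1 fall (9 and 0), and the rises were Cd40, Cd80, Cd86, Icosl, Slamf1 and Slamf7, none of them a class II chain. Cd40, the receptor for T cell help, had 401 and 425 RPKM with LPS, against 6.78 RPKM unstimulated. Cd86, a ligand of CD28, had 51.9 and 56.2 RPKM with LPS, against 4.88 RPKM unstimulated. Class II genes themselves were less clear. H2-Ab1 had 232 and 329 RPKM with LPS, against 216 RPKM unstimulated, and Cd74, the invariant chain, had 1517 and 1922 RPKM with LPS, against 1349 RPKM unstimulated, and neither was called in RPKM but both were higher after median ratio scaling. Ciita, the class II transactivator, had 3.02 and 2.43 RPKM with LPS, against 2.6 RPKM unstimulated, and was called on neither scale.

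Surface receptors changed in both directions. In the list of 29 Fc, paired and C-type lectin receptors 11 rose and 11 fell (14 and 7). Fcgr1 and Fcgr4 encode activating Fc receptors. Fcgr1 had 139 and 143 RPKM with LPS, against 25.3 RPKM unstimulated. Fcgr4 had 55.7 and 64.7 RPKM with LPS, against 8.98 RPKM unstimulated. Clec4e, which encodes Mincle, a receptor of mycobacterial glycolipid, had 412 and 415 RPKM with LPS, against 43.7 RPKM unstimulated. A receptor and its ligand moved apart in Sirpa and Cd47, a pair that restrains phagocytosis. Sirpa fell to 27.4 and 27.6 RPKM with LPS, against 79.5 RPKM unstimulated. Cd47 rose to 138 and 161 RPKM with LPS, against 58.3 RPKM unstimulated. Of 30 cytokine and growth factor receptors 10 rose and 12 fell (13 and 7). Csf1r, the receptor on which macrophages depend, fell to 256 and 245 RPKM with LPS, against 569 RPKM unstimulated. Both chains for interleukin-6 were lower while Il6 was higher. Il6ra fell to 1.99 and 2.9 RPKM with LPS, against 13.1 RPKM unstimulated. Il6st, the signalling chain gp130, fell to 5.96 and 4.29 RPKM with LPS, against 22.4 RPKM unstimulated. Of 22 G protein-coupled receptors 6 rose and 8 fell (7 and 2). Adora2a, the adenosine receptor that restrains inflammation, had 7.27 and 5.9 RPKM with LPS, against 0.182 RPKM unstimulated. Ccr2, the receptor of Ccl2, fell to 0.771 and 0.651 RPKM with LPS, against 3.82 RPKM unstimulated. Of 27 scavenger and apoptotic cell receptors 6 rose and 10 fell (12 and 4, and 7 and 11 with quantile normalization). Msr1, the class A scavenger receptor, rose to 120.0 and 131 RPKM with LPS, against 38.2 RPKM unstimulated. Lrp1, a large endocytic receptor, fell to 21.7 and 20.0 RPKM with LPS, against 109 RPKM unstimulated. Adhesion genes gave 9 rises and 7 falls of 28 (14 and 4). Icam1, the ligand of leukocyte integrins, had 509.7 and 516 RPKM with LPS, against 31.2 RPKM unstimulated. Sdc4, a proteoglycan of the surface, had 229 and 240.1 RPKM with LPS, against 14.3 RPKM unstimulated.

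Secreted effectors moved in both directions. Of 34 matrix proteases, cathepsins and inhibitors 11 rose and 9 fell (16 and 3). Mmp13, a collagenase, had 527 and 523 RPKM with LPS, against 11.5 RPKM unstimulated. Mmp14, a protease of the membrane, had 128 and 133 RPKM with LPS, against 21.1 RPKM unstimulated. Other members of the family were lower. Mmp19 fell to 14.9 and 9.42 RPKM with LPS, against 35.6 RPKM unstimulated. Mmp8, the neutrophil collagenase, fell to 5.47 and 7.5 RPKM with LPS, against 26.8 RPKM unstimulated, and the summed neutrophil markers stood at 1610 and 2030 RPKM with LPS, against 3270 RPKM unstimulated. Mmp3 had 12.9 and 0.911 RPKM in libraries 14 and 15, against 4.14 RPKM unstimulated, and was not called. C3, Cfb and C2 encode the complement proteins from which convertases are built. C3 had 489 and 498 RPKM with LPS, against 96.2 RPKM unstimulated. Cfb had 103 and 114 RPKM with LPS, against 1.32 RPKM unstimulated. C2 had 60.0 and 72.6 RPKM with LPS, against 0.751 RPKM unstimulated. The 3 C1q chains were not called in RPKM but were higher after median ratio scaling. That group of 19 had 8 rises and 2 falls (14 and 0, and 9 and 3 with quantile normalization).

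Sensors and executors of cell death rose in part. Of 22 inflammasome and pyroptosis genes 10 rose and 9 fell (10 and 4). Nlrp3, an inflammasome sensor, had 129.5 and 118 RPKM with LPS, against 17.7 RPKM unstimulated. Casp1, which cleaves interleukin-1 beta, had 323 and 378 RPKM with LPS, against 65.1 RPKM unstimulated. Casp4, the receptor for LPS in the cytosol that is known as caspase-11 in mice, had 131 and 141 RPKM with LPS, against 21.6 RPKM unstimulated. The necroptosis pair was split. Mlkl, the executor, had 172 and 163 RPKM with LPS, against 13 RPKM unstimulated, and its kinase Ripk3 was lower in RPKM only (−0.76). Txnip, which binds thioredoxin, fell to 25 and 30.3 RPKM with LPS, against 102 RPKM unstimulated. Of 21 apoptosis genes 10 rose and 4 fell (12 and 1), and survival genes were among the rises. Bcl2a1b, of the BCL-2 family and 1 of several near copies, had 506 and 639 RPKM with LPS, against 58 RPKM unstimulated. Cflar, which blocks caspase-8, had 48.9 and 38.5 RPKM with LPS, against 6.38 RPKM unstimulated.

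Transcription factors that mark the macrophage lineage were more often lower than higher, as were all genes tested in RPKM. Of 21, 2 rose and 12 fell (4 and 7), with a median of −0.61 beside −0.44 for all genes. Spi1, which encodes PU.1, had 134 and 147 RPKM with LPS, against 121 RPKM unstimulated, and was not called in RPKM but was higher after median ratio scaling. Pparg, which drives lipid programmes, fell to 4.58 and 3.63 RPKM with LPS, against 35.8 RPKM unstimulated. Rxra, the partner of Pparg and of the liver X receptors, fell to 0.418 and 0.572 RPKM with LPS, against 4.94 RPKM unstimulated. Related factors could differ, as in the pair Tfeb and Tfec. Tfeb, a regulator of lysosomal genes, fell to 1.05 and 0.962 RPKM with LPS, against 11.5 RPKM unstimulated. Tfec rose to 31.3 and 33.7 RPKM with LPS, against 12 RPKM unstimulated. Cebpd, an inflammatory C/EBP factor, rose to 15.4 and 19.5 RPKM with LPS, against 4.78 RPKM unstimulated, a call lost without library 15 (adjusted p = 0.054 in limma).

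Of the 41 lists, cell type markers aside, DNA replication and mitosis, ribosome biogenesis and DNA repair had the lowest medians in RPKM and after median ratio scaling, whereas with quantile normalization lysosome and autophagy genes were lowest (−0.88). Of 40 genes of DNA replication and mitosis 3 rose and 30 fell (6 and 21), with a median of −1.08. Bub1b, of the mitotic checkpoint, fell to 2.3 and 1.75 RPKM with LPS, against 11.2 RPKM unstimulated. Kif20a, of cytokinesis, fell to 2.82 and 1.7 RPKM with LPS, against 11.6 RPKM unstimulated. The 3 rises were the G1 cyclins Ccnd2 and Ccne1 and the inhibitor Cdkn1a. Ccnd2 had 12.1 and 11.4 RPKM with LPS, against 0.648 RPKM unstimulated. Cdkn1a, which encodes p21, had 119 and 137 RPKM with LPS, against 18.7 RPKM unstimulated. Of 20 DNA repair and p53 target genes 2 rose and 15 fell (3 and 8). Sesn1, a p53 target, fell to 1.12 and 0.66 RPKM with LPS, against 11.7 RPKM unstimulated. Chek2, a checkpoint kinase, fell to 0.95 and 1.86 RPKM with LPS, against 11.2 RPKM unstimulated. Ribosome biogenesis had 1 rise and 24 falls of 27 (2 and 13). Gnl3, of the nucleolus, fell to 27.9 and 23.8 RPKM with LPS, against 91.2 RPKM unstimulated. Chromatin regulators had 5 rises and 16 falls of 29 (8 and 7). Dnmt1, the maintenance DNA methyltransferase, fell to 4.49 and 4.09 RPKM with LPS, against 35.1 RPKM unstimulated. Kdm6b, a histone demethylase, rose to 15.1 and 14.4 RPKM with LPS, against 6.67 RPKM unstimulated.

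Lysosome and autophagy genes had no rise and 25 falls of 30 in RPKM, 3 rises and 7 falls after median ratio scaling and 1 rise and 26 falls with quantile normalization. Ulk1, the kinase that starts autophagy, fell to 1.91 and 2.44 RPKM with LPS, against 9.87 RPKM unstimulated. Atg7, of autophagosome growth, fell to 6.75 and 6.61 RPKM with LPS, against 22.8 RPKM unstimulated. Of 26 genes of the unfolded protein and integrated stress responses 2 rose and 19 fell (5 and 7). Hspa5, the chaperone BiP, had 273 and 288 RPKM with LPS, against 137 RPKM unstimulated. Sensors of the same stress were lower. Ern1, which encodes IRE1 alpha, fell to 3.46 and 2.79 RPKM with LPS, against 13.1 RPKM unstimulated. Eif2ak3, which encodes PERK, fell to 1.48 and 0.712 RPKM with LPS, against 5.45 RPKM unstimulated.

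The response was then set beside that of the knockouts, whose 12 columns give no value to the WT difference. They did enter the spread behind the WT p-values and the filter on low values, so the WT calls are not independent of them. Each genotype has its own unstimulated library, so no control is shared. Tnfsf13, which encodes APRIL, had 13 and 17.1 RPKM with LPS, against 43.4 RPKM unstimulated in WT, and it had 0 reads in all 3 APRIL KO libraries. Tnfsf13b, which encodes BAFF, was not analysed here. Of the 332 WT rises of at least 4-fold, 261 (78.6%) were higher by at least 4-fold in both BAFF KO and APRIL KO macrophages and 325 (97.9%) by at least 2-fold, against 3% and 7.1% of all genes tested. Of the 131 WT falls of at least 4-fold, 128 (97.7%) were lower by at least 2-fold in both and 56 (42.7%) by at least 4-fold, against 10.4% and 0.7% of all genes. Over the 332 rises the median log2 difference was 2.76 in WT, 2.91 in BAFF KO and 2.82 in APRIL KO, and over the 131 falls it was −2.32 in WT, −1.94 in BAFF KO and −2.28 in APRIL KO. Tested directly, the WT response minus the mean of both knockout responses gave 0 called genes of 9934 (0%) in limma, with a smallest adjusted p of 0.18. The count at an unadjusted p below 0.05 was 1036 of 9934, and voom on recovered reads, added after the data were seen, called 5. This test averages both knockouts, so a difference in BAFF KO or APRIL KO alone is diluted. A count of 0 therefore does not show that each knockout responded as WT did.

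The 7 rises that did not reach 2-fold in both knockouts were short of it in BAFF KO. They were Mt2, Il19, Sema4c, Plaur, Errfi1, Timd4 and Fcgr2b, named after their values were seen. Mt2 had 495 and 433 RPKM in the WT LPS libraries, against 45.7 RPKM unstimulated. In BAFF KO it had 40.4 and 45.3 RPKM with LPS, against 41 RPKM unstimulated, and in APRIL KO 309.5 and 422 RPKM with LPS, against 30.2 RPKM unstimulated. The WT and APRIL KO libraries separated by treatment, and the BAFF KO libraries overlapped. U90926, among the 15 largest WT rises, had 97.1 and 113 RPKM in WT, 9.45 and 9.83 RPKM in BAFF KO and 105 and 91.8 RPKM in APRIL KO with LPS, and no reads in any unstimulated library. Its response difference, WT minus the mean of both knockouts, was 1.70 ± 0.19 (SE, limma, unadjusted p = 2.1e-05, adjusted p = 0.18). Il1b responses were 7.37 in WT, 5.40 in BAFF KO and 7.93 in APRIL KO on the log2 scale. In limma, WT minus the mean of both knockouts had an adjusted p of 0.28 for Il1b. Nos2 responses were 7.87, 8.14 and 7.97 in the same order (adjusted p 0.73 in the same test). The gap between WT and BAFF KO alone was not tested.

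**Figure D5:**
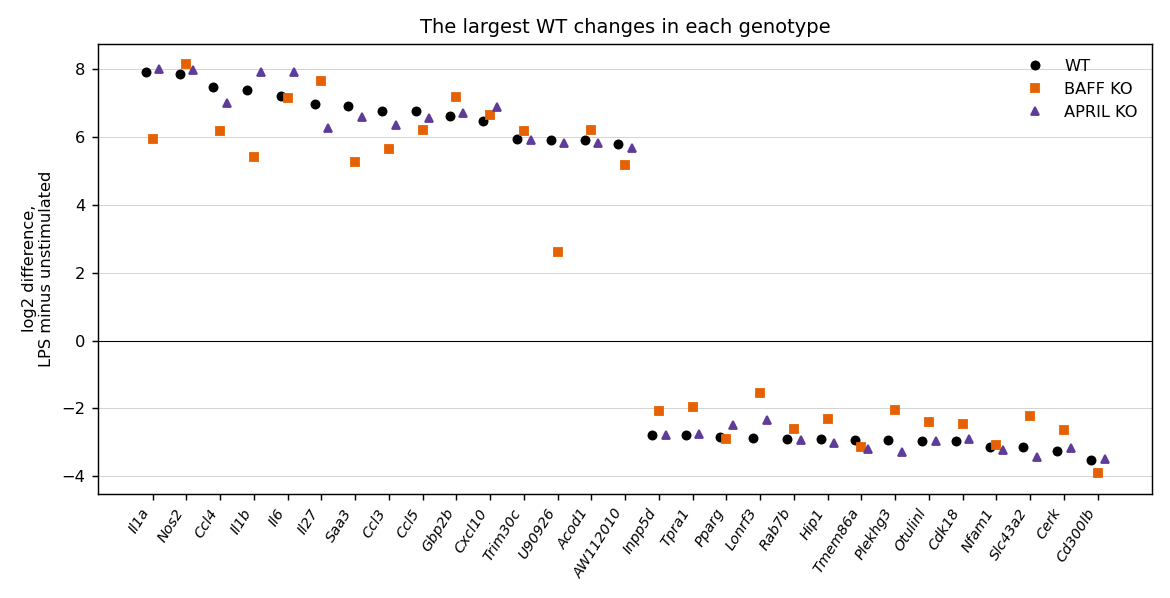
Log2 difference, LPS minus unstimulated, of the 15 largest WT rises and 14 of the 15 largest WT falls in macrophages of the WT, the BAFF KO and the APRIL KO genotype. In both knockouts the rises stand at 2.61 to 8.14 and the falls at −3.91 to −1.55, and U90926 shows the widest gap, 2.61 in BAFF KO beside 5.93 in WT.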

How the data were processed

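RNA was isolated with a mirVana kit and sequenced as single reads of 85 bases, per the labels' protocols, which name both a directional and a TruSeq library kit, so strand handling is not known. The submitters' processing notes name STAR and mm10, and neither the counter nor the annotation is given in the sources used. The authors deposited RPKM values for 11164 genes in 18 columns. Symbols and positions came from GENCODE M21 (11084 of the IDs matched), and promoters from RefSeq (GRCm38.p6), where the first listed start of each gene was used.

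Both columns of a library were averaged, which gave 9 libraries in 6 groups. limma 3.58.1 (R 4.3.3) was run on log2(RPKM + 1) over all 9 libraries with a mean for each group and an eBayes trend, for the 9934 genes that averaged 1 RPKM or more in any group. Tests were two-sided, with Benjamini-Hochberg adjustment over all genes tested and a threshold of 0.05. The spread came from the 3 LPS pairs, since each unstimulated group held 1 library. Whole reads could be recovered from the RPKM values: 100% of values were whole within 0.01 reads after the added read was taken off. Counts of 0 had been set to a floor per gene, so a level without reads is given as 0 reads. A voom fit of these reads called 6259 genes. Bounds treat reads as independent molecules and cover counting error only.

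The gene lists, motifs and comparisons were chosen with earlier results of these data known. Genes named in the text are the 15 largest rises and the 15 largest falls whose columns did not overlap, the 10 highest genes with LPS, members of the gene lists, and the genes of each set the text counts in full. Among the largest falls 1 gene is not reported here. Motifs were searched on both strands, and overlapping matches counted once per promoter. The fit was also run on simulated data with few changed genes, balanced between up and down. Such data cannot check the calls where most genes shift, as here in RPKM. Alternatives were another pseudocount, no filter on low values, median ratio scaling, quantile normalization, columns kept separate or used singly, WT alone, a replicate block, leaving out each LPS library, and a minimum of 2-fold.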

Additional observations from a re-analysis of the deposited data

How the results depend on the processing

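The WT comparison called 5992 genes, 1356 higher and 4636 lower. Several choices moved these counts: median ratio scaling called 3971, with 2289 higher and 1682 lower, and quantile normalization called 4504, with 1776 higher and 2728 lower. A minimum of 2-fold left 2530 called, 781 higher and 1749 lower. The column of lower index of each library alone called 4142, with 3055 lower, and the column of higher index alone called 5645. Lower index columns held 1649338 to 1942218 reads, against 3472495 to 4078562 in higher index columns. Leaving out 1 LPS library at a time called 5187 to 5840 genes in all, 1246 to 1336 higher and 3911 to 4505 lower. The WT response minus the mean knockout response had 0 called genes, and 0 to 1 with LPS libraries left out in turn. It had 1 with a pseudocount of 0.1 RPKM, 1 with the lower index column alone, 5 with voom on recovered reads and 677 where the 18 columns entered as separate samples, which treats 2 columns of a library as replicates. Of the named differences that were called in RPKM or after median ratio scaling, that scaling turned 4 round, to 0.48 for Adgre1, 0.22 for Ccl6, 0.024 for Cd68 and 0.42 for Gapdh on the log2 scale. Fth1 and Ctss, called in neither, also changed sign, to 0.54 for Fth1 and 0.37 for Ctss. The sign of 2 genes that were not called hung on the LPS library: without library 14 the difference was −1.08 for Cxcl5 and −1.43 for Mmp3, and without library 15 it was 1.87 for Cxcl5 and 1.44 for Mmp3. Scaling and columns used singly change which reads enter or how they are divided, and the cause of each shift was not tested.

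The labels number the LPS libraries of each genotype alike, and the deviations of same-numbered libraries correlated by −0.18, −0.1 and 0.12. These values show no strong pairing, but they cannot tell whether same-numbered libraries were handled together. With the replicate block 5490 genes were called, 1265 higher and 4225 lower, and the difference of responses had 0. Depth limits low genes: Nos2 rested on 5 reads unstimulated, and genes without reads there allow only a bound.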
